A study of Saccharomyces cerevisiae with 18 samples.

Results

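Thiamine (vitamin B1) metabolism was followed through 10 genes of budding yeast, THI6, THI4, THI7, THI20, THI21, THI22, THI80, THI2, THI3 and PHO3. They were taken by symbol from the probe annotation of an array that measured 5650 named genes. All 10 had 1 probe each and none was removed by a filter. They were picked because of how THI6 and the others varied across the 6 groups of cultures, so their own values are given as a description and carry no test.

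Yeast makes thiamine by joining a pyrimidine ring and a thiazole ring that are built separately. The pyrimidine comes from histidine and pyridoxal phosphate through THI5-type enzymes, the thiazole from NAD and glycine through Thi4, and Thi6 couples the rings to thiamine monophosphate. Thiamine diphosphate, the active cofactor, serves pyruvate decarboxylase, transketolase and other carbon-carbon bond enzymes, and the genes of the pathway are known to be repressed when thiamine is plentiful.

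RNA from 18 cultures was hybridised to 2-colour arrays, 1 culture per array, against pooled RNA of W303-1A (3 cultures at 0% ethanol). The 6 groups, each of 3 separate cultures, were the ethanol-tolerant mutant CM1 with 6.5% v/v ethanol, CM1 with 0%, the ethanol-tolerant mutant SM1 with 6.5%, SM1 with 0%, the parent W303-1A with 6.5%, and W303-1A with 0%. Both mutants descend from W303-1A, and their mutations, the time of sampling and the thiamine content of the medium are not given in the sources used here. Cultures began from unstressed late exponential cells, and RNA came from equal numbers of cells. A ratio shows a gene's share of the RNA, so a change in total RNA per cell cannot be told apart from it. Each mutant is a single strain.

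Levels below are log2 ratios of a culture over the pool, and differences are log2 differences between group means ± the standard error of a linear model fitted in limma to all 18 arrays (n = 3 arrays per group). Replicate 1 of every group was dye-swapped, and its sign was turned. The direction of the deposited ratio was not stated. Culture over pool is the likely reading, since HSP12, a heat shock gene, stood on the arrays with ethanol as deposited at -4.83 (swapped), 2.14 and 4.25 (normal) in CM1, at -6.32, 5.16 and 4.69 in SM1, and at -7.01, 8.12 and 7.92 in W303-1A. HSP26, HSP104, CTT1 and TPS1 were also read for direction, and not all followed. After the turn, CM1 with ethanol ran from 0.82 to 3.23 for HSP26 and 0.92 to 2.01 for HSP104. It ran from -0.97 to 0.85 for TPS1 and -2.02 (swapped) to 0.38 for CTT1. With ethanol, HSP104 reached -0.21 on 1 array of SM1 and CTT1 -0.91 on 1 array of W303-1A. Their other values, and all of HSP26 and TPS1, were above 0 in these groups. Over all genes, the ethanol differences of swapped and normal arrays correlated at -0.09 in CM1, -0.30 in SM1 and -0.42 in W303-1A as deposited, so the reading is weakest for CM1. Levels within 1 group did not all turn with the dyes. As deposited, the swapped array correlated with the normal ones at 0.30 and 0.14 in CM1 with ethanol, 0.23 and 0.09 in CM1 without, -0.15 and -0.11 in SM1 with ethanol, -0.00 and 0.13 in SM1 without, 0.00 and 0.03 in W303-1A with ethanol, and 0.41 and 0.46 in W303-1A without. A gene is said to have passed when its adjusted p over all 5650 genes was under 0.05.

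THI6 was high in 1 of the 6 groups. It encodes the bifunctional enzyme that joins the pyrimidine and the thiazole and also phosphorylates the thiazole for salvage. In CM1 with ethanol the 3 arrays stood at 5.92, 3.55 and 3.27, against -0.03, 0.38 and -0.01 in CM1 without ethanol. No array of the other 15 reached the lowest of these 3. The mean of 4.25 ± 1.45 (SD, n = 3) in CM1 with ethanol is a 19.0-fold ratio over the pool.

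The ethanol difference of THI6 in CM1 was 4.14 ± 0.57. It was 5.95 within the swapped pair of arrays and 3.23 within the normal arrays. No other of the 5650 genes had an ethanol difference of larger absolute size in CM1. The size of 4.14 and this rank were obtained with the swapped arrays turned. With their sign as deposited, swapped and normal values of opposite sign cancelled and the THI6 difference was 0.17. The 3.23 within the normal arrays involves no turning.

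In SM1, THI6 stayed near or below the pool with ethanol. The arrays of SM1 with ethanol stood within 0.005 of 0, at -0.60 and at -1.38, against 0.26, 0.00 and -0.28 without ethanol. The first of these is one of 726 probes within 0.005 of 0 on that array, where the other 17 arrays held 26 to 207. The difference was -0.65 ± 0.57, or -0.83 with values at or next to 0 set to missing, an alternative chosen after seeing the data.

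In the parent, THI6 stood at 0.73, 0.02 and 0.57 with ethanol, against 0.23, 0.04 and 2.00 without. The ranges overlapped, and the difference was -0.32 ± 0.57. The 2.00 came from 1 normal array of W303-1A without ethanol, and without that array the difference was 0.43. A culture that makes up an equal share of a pool of 3 cannot exceed it by more than 1.58 on the log2 scale, and THI80 stood at 2.23 on another normal array of the same group. Whether the 3 cultures were mixed equally is not stated, and the source of these values was not tested.

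**Figure D1:**
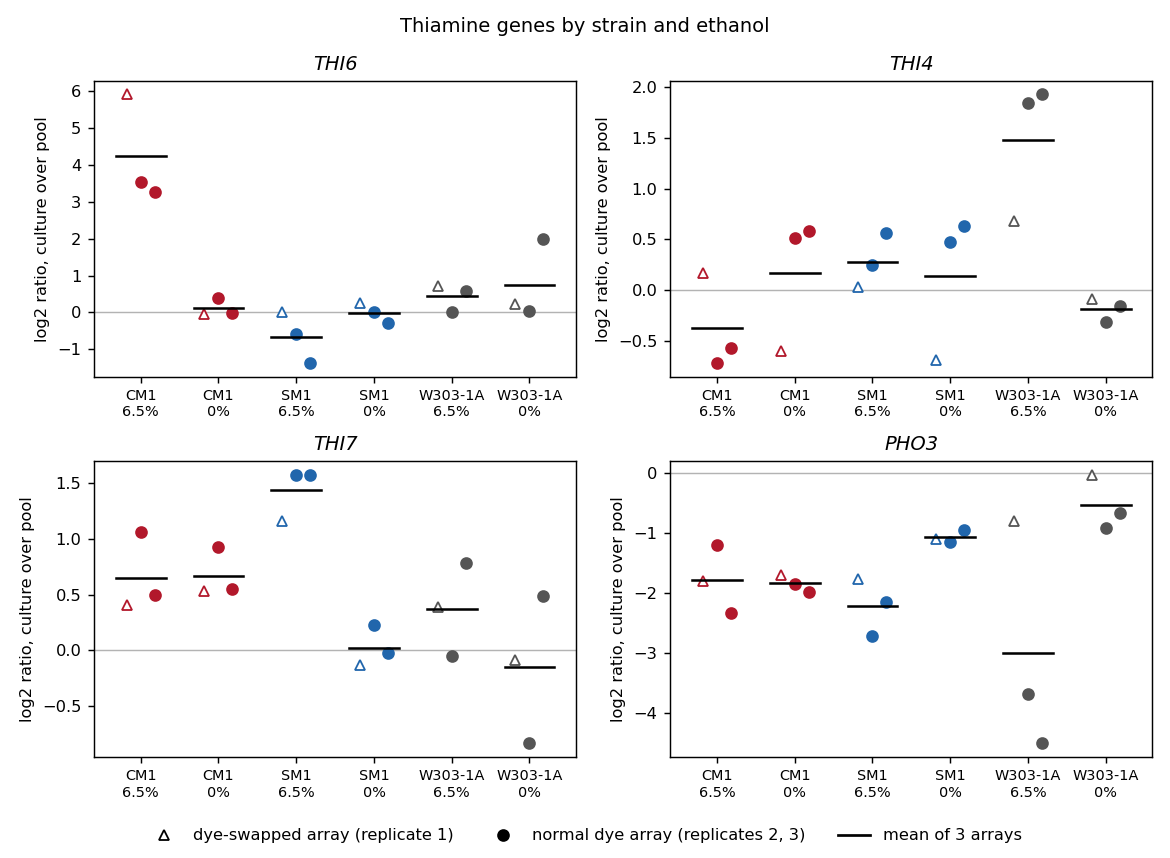
Log2 ratio of culture over pool (vertical axis, a separate scale per gene) for THI6, THI4, THI7 and PHO3 in the 6 groups. Open triangles are dye-swapped arrays, filled circles normal arrays and bars the mean of 3 arrays. THI6 reads 5.92, 3.55 and 3.27 in CM1 with ethanol and at most 2.00 in the other groups, THI4 is highest in W303-1A with ethanol, THI7 in SM1 with ethanol, and PHO3 is lowest in W303-1A with ethanol.

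The order of the group means of THI6 was CM1 with ethanol at 4.25, W303-1A without ethanol at 0.76, W303-1A with ethanol at 0.44, CM1 without ethanol at 0.11, SM1 without ethanol at -0.00 and SM1 with ethanol at -0.66. Only the first step in this order separated groups whose ranges did not overlap. Between strains with ethanol, THI6 differed by 3.81 ± 0.57 in CM1 against W303-1A and by -1.10 ± 0.57 in SM1 against W303-1A. Without ethanol the same differences were -0.64 ± 0.57 and -0.76 ± 0.57, and without the array at 2.00 they were 0.10 and -0.01.

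The ethanol difference of THI6 was larger in CM1 than in W303-1A by 4.45 ± 0.81, and larger in CM1 than in SM1 by 4.79 ± 0.81. In SM1 minus W303-1A it was -0.34 ± 0.81.

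THI4 was high in another group. It encodes the thiazole synthase, a protein that gives up one of its own sulfur atoms and works once. With ethanol it stood at 0.68, 1.85 and 1.93 in W303-1A, against -0.09, -0.32 and -0.16 without. These ranges did not overlap, and the difference was 1.68 ± 0.37, with 0.77 within the swapped arrays and 2.13 within the normal ones. The array at 0.68 was the swapped one.

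In both mutants the THI4 ranges with and without ethanol overlapped. In CM1 the arrays with ethanol stood at 0.17, -0.72 and -0.57, against -0.60, 0.51 and 0.58 without, a difference of -0.54 ± 0.37. In SM1 they stood at 0.03, 0.24 and 0.56 with ethanol, against -0.69, 0.48 and 0.64 without, a difference of 0.14 ± 0.37. In both mutants the swapped array without ethanol lay below the normal ones, and the difference was above 0 within the swapped arrays (0.76 in CM1, 0.72 in SM1) and below 0 within the normal arrays (-1.19 and -0.15).

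With ethanol, THI4 was lower than in W303-1A by 1.86 log2 units in CM1 (-1.86 ± 0.37) and by 1.21 in SM1 (-1.21 ± 0.37). The ethanol difference of THI4 in CM1 minus that in W303-1A was -2.22 ± 0.52, and in SM1 minus W303-1A -1.54 ± 0.52. Within the swapped arrays these were -0.00 and -0.05, so both came from the normal arrays. In the order of group means, W303-1A with ethanol at 1.48 was the only group apart from its neighbour, SM1 with ethanol at 0.28. The others were CM1 without ethanol at 0.16, SM1 without ethanol at 0.14, W303-1A without ethanol at -0.19 and CM1 with ethanol at -0.38, and their ranges overlapped.

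The kinases of the pyrimidine branch varied less. THI20 phosphorylates hydroxymethylpyrimidine and carries a thiaminase domain. In W303-1A it stood at 0.02, 0.48 and 0.75 with ethanol, against -0.44, -0.40 and -1.07 without, with no overlap and a difference of 1.05 ± 0.30. In CM1 it stood at 0.09, 0.93 and 0.58 with ethanol, against 0.21, -0.01 and -0.08 without, and the ranges overlapped at a difference of 0.49 ± 0.30. In SM1 the difference was 0.16 ± 0.30.

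THI21, a paralog with the same kinase step, had ethanol differences of 0.31 ± 0.38 in CM1, 0.73 ± 0.38 in SM1 and -0.06 ± 0.38 in W303-1A. The value in SM1 rested on the swapped array with ethanol at 1.42, where the normal arrays with ethanol stood at 0.09 and 0.01. THI22 is a relative for which this activity has not been shown, and its 18 values lay between -0.66 and 0.28. Its ethanol differences were 0.18 ± 0.24 in CM1, -0.39 ± 0.24 in SM1 and -0.05 ± 0.24 in W303-1A. THI20, THI21 and THI22 are similar in sequence, and how far their probes read each other's transcripts was not tested.

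THI7, the plasma membrane thiamine transporter, was highest in SM1 with ethanol. The arrays there stood at 1.16, 1.57 and 1.57, against -0.13, 0.23 and -0.03 in SM1 without ethanol. All 3 exceeded every other array, and the difference of 1.41 ± 0.31 was similar within the swapped arrays (1.29) and the normal arrays (1.47). In CM1 the arrays stood at 0.40, 1.06 and 0.49 with ethanol, against 0.53, 0.92 and 0.55 without, a difference of -0.02 ± 0.31. In W303-1A they stood at 0.39, -0.05 and 0.78 with ethanol, against -0.09, -0.83 and 0.49 without, and overlapped at 0.52 ± 0.31.

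With ethanol, THI7 was above W303-1A by 1.06 ± 0.31 in SM1 and by 0.28 ± 0.31 in CM1. Without ethanol the differences from W303-1A were 0.17 ± 0.31 in SM1 and 0.82 ± 0.31 in CM1. CM1 without ethanol thus lay at 0.67 ± 0.22 (SD, n = 3), above all 3 arrays of W303-1A without ethanol, which reached 0.49 at most.

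PHO3 encodes the periplasmic acid phosphatase that removes phosphate from thiamine phosphates before uptake. It lay below the pool on all 18 arrays. These include the arrays of W303-1A without ethanol, although the pool was made from cultures of that kind, and the source of this was not tested. In W303-1A PHO3 stood at -0.80, -3.69 and -4.50 with ethanol, against -0.03, -0.91 and -0.66 without. The swapped array with ethanol, at -0.80, fell inside the range without ethanol, and the difference of -2.46 ± 0.56 was -0.78 within the swapped arrays and -3.31 within the normal ones.

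In SM1, PHO3 stood at -1.77, -2.71 and -2.16 with ethanol, against -1.10, -1.14 and -0.95 without, a difference of -1.15 ± 0.56 with no overlap. In CM1 it stood at -1.79, -1.21 and -2.33 with ethanol, against -1.69, -1.85 and -1.98 without, a difference of 0.06 ± 0.56. CM1 was thus already low without ethanol. All 3 of its arrays there lay under those of W303-1A without ethanol, at a difference of -1.31 ± 0.56.

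**Figure D2:**
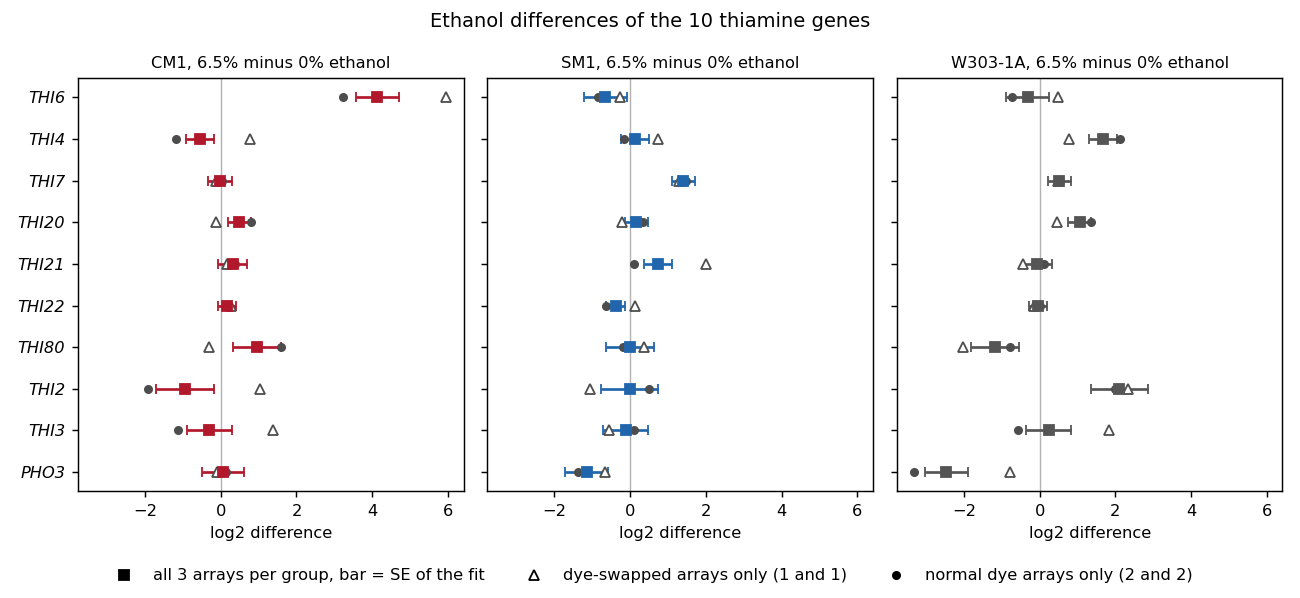
Log2 difference with minus without 6.5% ethanol (horizontal axis) of the 10 thiamine genes in CM1, SM1 and W303-1A. Squares with bars are the fit ± SE over 3 arrays per group, open triangles the swapped pair and dots the normal arrays. THI6 in CM1 reads 4.14 ± 0.57, while THI80, THI2 and THI3 show triangles and dots far apart.

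For THI80, THI2 and THI3 the ratio followed the dye more than the culture. THI80 encodes thiamine pyrophosphokinase, which makes thiamine diphosphate. THI2 encodes a zinc-finger activator of thiamine genes, and THI3 a decarboxylase-like protein that senses thiamine diphosphate and acts with PDC2. As deposited, THI80 was above 0 on 18 of 18 arrays, THI2 below 0 on 16 of 18 and THI3 below 0 on 17 of 18, whether or not the dyes were swapped.

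After the sign was turned, the swapped arrays therefore differed from the normal ones by -2.34 for THI80, 2.43 for THI2 and 1.5 for THI3. A larger absolute shift was found for 2.30% of all genes in the case of THI80, 1.75% for THI2 and 10.2% for THI3. For THI6 the shift was 0.55, and 46.3% of genes had a larger one. THI6 as deposited read -5.92 on the swapped array of CM1 with ethanol and 3.55 and 3.27 on the normal arrays, so it changed sign with the dyes.

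**Figure D3:**
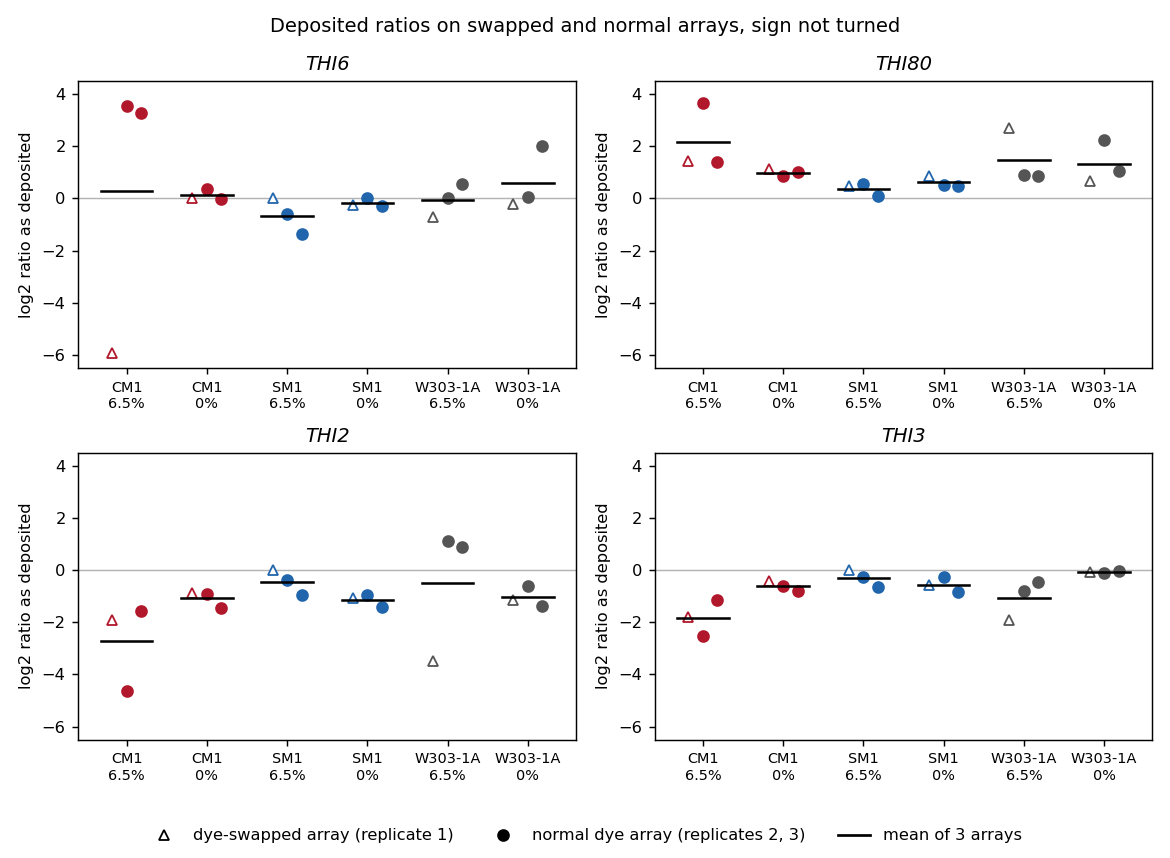
Log2 ratios as deposited, sign not turned (vertical axis), of THI6, THI80, THI2 and THI3 in the 6 groups, with open triangles for swapped arrays, filled circles for normal arrays and bars for the mean of 3. THI6 lies at -5.92 on the swapped and at 3.55 and 3.27 on the normal arrays of CM1 with ethanol, while THI80 stays above 0 on all 18 arrays and THI3 below 0 on 17.

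Group values of these 3 genes are given with that limit. THI80 in CM1 with ethanol stood at -1.44, 3.66 and 1.41, against -1.12, 0.85 and 1.01 without, a difference of 0.96 ± 0.63. In W303-1A it stood at -2.69, 0.89 and 0.85 with ethanol, against -0.68, 2.23 and 1.06 without, a difference of -1.19 ± 0.63. Swapped and normal arrays of 1 group lay on opposite sides of 0 in all 6 groups.

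THI2 was the exception in 1 group. In W303-1A with ethanol it stood at 3.47, 1.13 and 0.89, above the pool on both kinds of array, against 1.14, -0.61 and -1.37 without ethanol. Its difference was 2.11 ± 0.76, with 2.34 within the swapped and 1.99 within the normal arrays. In CM1 with ethanol THI2 stood at 1.92, -4.65 and -1.56, and the difference between CM1 and W303-1A with ethanol was -3.25 ± 0.76. Without the CM1 array at -4.65 that difference was -2.0. THI3 had ethanol differences of -0.30 ± 0.59 in CM1, -0.12 ± 0.59 in SM1 and 0.24 ± 0.59 in W303-1A.

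Counts of the 10 genes that passed are given beside those of all 5650 genes, and nothing is read from them because the genes were chosen on these contrasts. For ethanol in CM1, 1 of 10 passed (THI6, higher), where 5.61% of all genes did, 3.88% higher and 1.73% lower. For ethanol in SM1, 1 passed (THI7, higher) beside 4.09% of all genes, 2.83% higher and 1.26% lower. For ethanol in W303-1A, 3 passed (THI4 and THI20 higher, PHO3 lower) beside 23.9%, of which 10.2% higher and 13.6% lower.

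Without ethanol, 0 of 10 passed for CM1 against W303-1A beside 1.22% of all genes (0.106% higher, 1.12% lower) and 0 for SM1 against W303-1A beside 1.73% (0.177% higher, 1.56% lower). With ethanol, 3 passed for CM1 against W303-1A (THI6 higher, THI4 and THI2 lower) beside 12.2% (6.96% higher, 5.29% lower). For SM1 against W303-1A with ethanol 2 passed (THI7 higher, THI4 lower) beside 17.5% (10.3% higher, 7.19% lower). Of the differences between ethanol responses, 2 passed for CM1 minus W303-1A (THI6 higher, THI4 lower) beside 4.65% (3.45% higher, 1.2% lower), 0 for SM1 minus W303-1A beside 6.37% (4.55% higher, 1.82% lower) and 1 for CM1 minus SM1 (THI6, higher) beside 0.336% (0.106% higher, 0.23% lower).

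Genes linked to the pathway but outside the 10 were tested, 28 in 3 lists and 5 relatives of PHO3. Each call named below was lost when the sign of the swapped arrays was not turned. In that setting swapped arrays oppose normal ones and differences tend to cancel, so it cannot decide whether a call holds. Without replicate 1, where only normal arrays remain, the calls were kept except SNZ1 for ethanol in CM1 and PDC1 for ethanol in SM1. Also lost there were PDC1, PHO11 and PHO12 in SM1 against W303-1A with ethanol. The first list holds 11 genes of precursor supply, namely the pyrimidine synthases THI5, THI11, THI12 and THI13, the pyridoxal phosphate synthase genes of the SNZ and SNO families, and PET18. In W303-1A 6 of 11 rose with ethanol and 5 did not pass, where 10.2% of all genes rose. The list median was 1.32 beside 0.03 over all genes. SNZ1 rose by 3.88 ± 0.69 (limma adjusted p = 0.000896), THI13 by 1.96 ± 0.61 (0.0291), THI5 by 1.54 ± 0.45 (0.021), THI12 by 1.51 ± 0.38 (0.00938), PET18 by 1.32 ± 0.35 (0.0134) and THI11 by 1.22 ± 0.39 (0.0336). SNZ1 stood at 2.58, 2.02 and 2.06 with ethanol in W303-1A, against 0.49, -3.89 and -1.57 without, so the groups did not overlap but 1 array without ethanol was far below the others. THI5, THI11, THI12 and THI13 are near-identical copies whose probes may read each other, so they are not independent measurements. After the sign was turned, the swapped arrays differed from the normal ones by 1.85 for SNZ1, 1.78 for THI13, 1.58 for THI5 and 1.19 for PET18. The shift was 1.5 for THI3, and only -0.16 for THI11 and -0.0054 for THI12. The calls of THI5 and THI11 were lost without any 1 of the 4 normal arrays of the parent, that of THI13 without any of these or the swapped array with ethanol, and that of PET18 without either normal array at 0% or replicate 2 at 6.5%. Of the 28 linked genes, 3 passed for ethanol in W303-1A under quantile normalization and 6 with no dye term, in place of 10.

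In the mutants 1 precursor gene passed in each, near the shares of all genes that did (4.09% for ethanol in SM1 and 5.61% in CM1, beside 23.9% in W303-1A). At an unadjusted p under 0.05 in limma the counts were 5 of 11 in SM1, 1 in CM1 and 6 in W303-1A. In SM1 THI12 rose by 1.53 ± 0.38 (limma adjusted p = 0.0345) and 10 of 11 did not pass, at a list median of 1.06 beside 0.00 over all genes. In CM1 SNZ1 rose by 2.71 ± 0.69 (limma adjusted p = 0.0308) and 10 of 11 did not pass, at a median of 0.14 beside -0.01. THI12 in CM1 stood at 0.45, -0.31 and -0.25 with ethanol, against 0.03, 0.00 and -0.32 without, and it was lower in CM1 than in W303-1A with ethanol (-1.58 ± 0.38, limma adjusted p = 0.0153, lost without replicate 2 of either group). For the difference of ethanol responses between CM1 and W303-1A, 0 of 11 passed in limma (2 at an unadjusted p under 0.05), with all 11 fitted values below 0. The call of THI12 in SM1 was lost without any 1 of the SM1 arrays other than the swapped one with ethanol, and that of SNZ1 in CM1 without any 1 of the CM1 arrays other than replicate 2 with ethanol. For the response of SM1 minus W303-1A, 0 of 11 passed in limma (1 at an unadjusted p under 0.05), with 3 fitted values above 0. The rise of these genes in W303-1A is therefore not shown to differ from that in CM1 or SM1.

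The second list holds 6 genes of transport and regulation. THI72, NRT1 and THI73 encode relatives of known transporters, THI74 a putative mitochondrial transporter, TPC1 the mitochondrial thiamine diphosphate carrier and PDC2 a regulator of pyruvate decarboxylase and thiamine genes. In limma, 0 of 6 passed in any of the 10 comparisons. At an unadjusted p under 0.05 the count was 2 for CM1 against W303-1A with ethanol, 1 each for ethanol in CM1 and in W303-1A, and 0 in the others. Their median ethanol differences were -0.08 in CM1, 0.12 in SM1 and 0.23 in W303-1A. TPC1 as deposited was below 0 on 18 of 18 arrays, swapped and normal alike.

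The third list holds 11 genes for enzymes that bind thiamine diphosphate. ARO10, a phenylpyruvate decarboxylase of fusel alcohol formation, moved in opposite directions in the parent and in SM1. It stood at 2.06, 1.70 and 2.27 with ethanol in W303-1A, against 0.42, -0.84 and 0.18 without, and rose by 2.09 ± 0.34 (limma adjusted p = 0.000542). In SM1 it stood at 0.20, -1.19 and -0.77 with ethanol, against 1.52, 0.76 and 1.17 without, and fell by 1.73 log2 units (-1.73 ± 0.34, limma adjusted p = 0.00887). Neither pair of groups overlapped, and the responses differed by -3.83 ± 0.49 for SM1 minus W303-1A (limma adjusted p = 0.000542).

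ARO10 in CM1 stood at 1.06, -0.73 and 0.37 with ethanol, against 0.75, 0.07 and -0.18 without. Its ethanol difference there was 0.02, and the response in CM1 minus that in W303-1A was -2.07 ± 0.49 (limma adjusted p = 0.0246). That call was lost under 12 of 24 alternatives, among them those without replicate 2 at 0% or replicate 3 at 6.5% of W303-1A and without any 1 of the CM1 arrays at 0%. The fall in SM1 was lost without replicate 3 of SM1 at 0%.

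PDC1, the main pyruvate decarboxylase, was lower in CM1 than in W303-1A at both ethanol levels. Without ethanol it stood at -2.05, -1.60 and -2.27 in CM1, against 0.37, 0.38 and 0.09 in W303-1A, a difference of -2.26 ± 0.27 (limma adjusted p = 0.000195). With ethanol it stood at -3.16, -2.58 and -2.86 in CM1, against -0.38, -0.63 and -1.23 in W303-1A, a difference of -2.12 ± 0.27 (limma adjusted p = 0.000174). The groups did not overlap at either level. Set against the same W303-1A arrays with ethanol, ARO10 was lower in CM1 (-1.78 ± 0.34, limma adjusted p = 0.00419) and in SM1 (-2.60 ± 0.34, limma adjusted p = 0.00023). Of the 28 linked genes, 4 passed in CM1 against W303-1A with ethanol (THI12, PDC1 and ARO10 lower, KGD1 higher) and 3 in SM1 against W303-1A (PET18, PDC1 and ARO10 lower), where 12.2% and 17.5% of all genes passed. Against W303-1A with ethanol, the call of KGD1 in CM1 was lost without replicate 2 of CM1 or replicate 1 of W303-1A, that of PET18 in SM1 without replicate 1 of SM1 or replicate 2 of W303-1A, and that of PDC1 in SM1 without replicate 1 or 3 of SM1 or replicate 1 or 2 of W303-1A.

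With ethanol, PDC1 fell in W303-1A (-1.03 ± 0.27, limma adjusted p = 0.0113) and in SM1 (-1.07 ± 0.27, limma adjusted p = 0.034). In CM1 PDC1 did not pass, but its group mean was -2.86 with ethanol and -1.98 without, and the ranges did not overlap. TKL1, the main transketolase, fell in W303-1A by 1.82 log2 units (-1.82 ± 0.37, limma adjusted p = 0.00254), and so did PXP1, which encodes a peroxisomal protein, by 0.84 (-0.84 ± 0.23, limma adjusted p = 0.0164). KGD1, a subunit of alpha-ketoglutarate dehydrogenase, rose in CM1 by 0.93 ± 0.24 (limma adjusted p = 0.0377). Without single arrays these calls were lost for PDC1 in W303-1A (replicate 3 with ethanol), PDC1 in SM1 (any but replicate 2 with ethanol), PXP1 (replicate 2 at 0%) and KGD1 (any normal array of CM1). In all, 1 of 11 rose and 3 fell in W303-1A, 2 fell in SM1 and 1 rose in CM1. Over all genes, 10.2% rose and 13.6% fell in W303-1A, 1.26% fell in SM1 and 3.88% rose in CM1. The list medians were -0.17 in W303-1A, -0.02 in SM1 and 0.02 in CM1, beside 0.03, 0.00 and -0.01 over all genes.

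**Figure D4:**
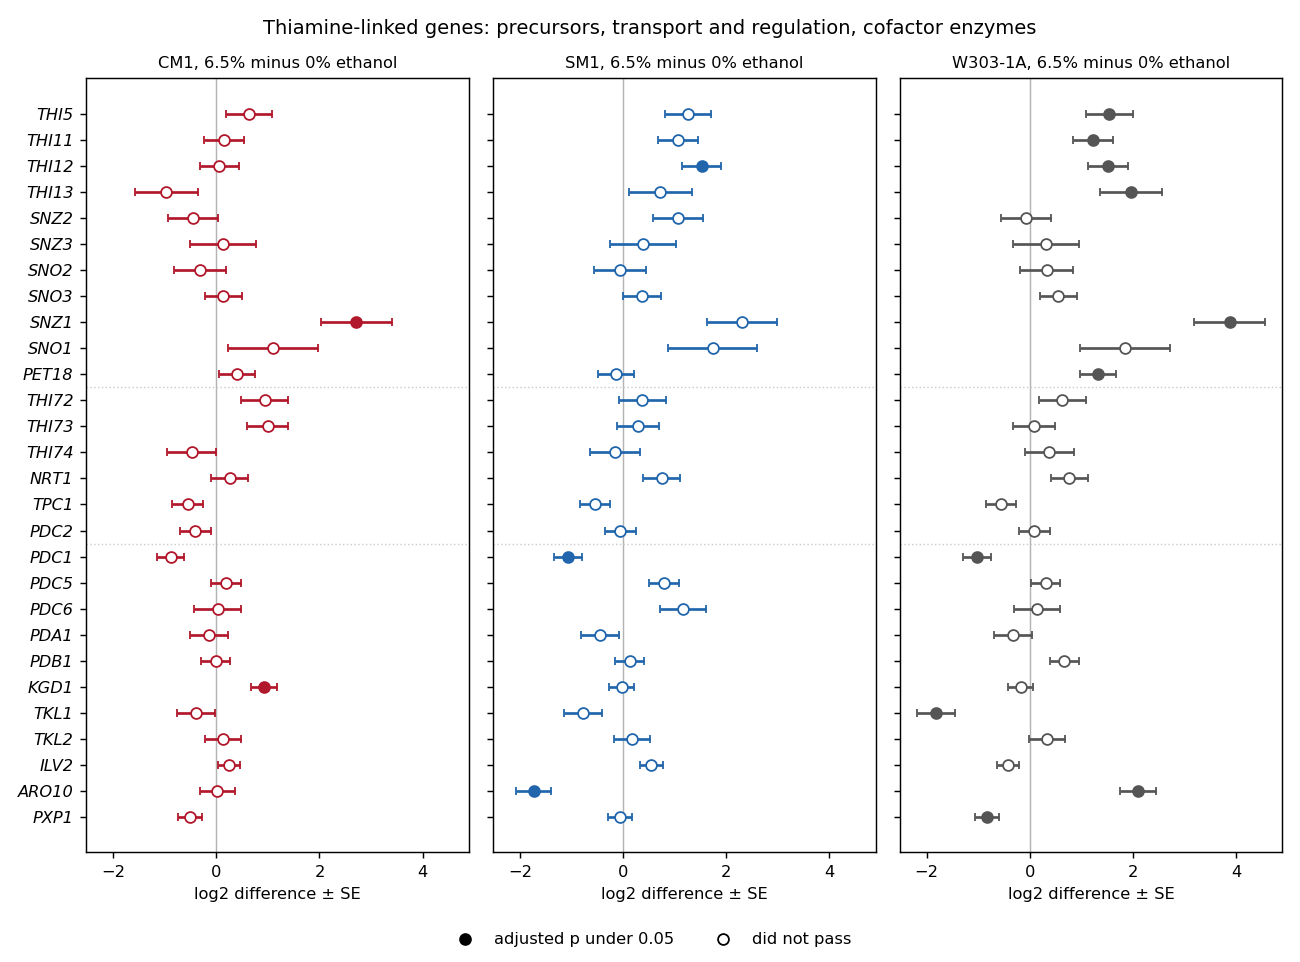
Log2 difference ± SE with minus without 6.5% ethanol (horizontal axis) of the 28 thiamine-linked genes in CM1, SM1 and W303-1A, grouped from top to bottom as precursor supply, transport and regulation, and cofactor enzymes. Filled points passed (adjusted p under 0.05) and open points did not. In all, 2 of 28 passed in CM1, 3 in SM1 and 10 in W303-1A, beside 5.61%, 4.09% and 23.9% of all genes. ARO10 lies below 0 in SM1 and above 0 in W303-1A.

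PHO3 lies next to PHO5 in the R64 gene order and is related to it, so the acid phosphatase genes PHO5, PHO11 and PHO12, the phosphate transporter PHO84 and the activator PHO4 were set beside it. In W303-1A 5 of 5 fell with ethanol, where 13.6% of all genes fell. They ranged from -2.04 ± 0.31 for PHO12 to -1.22 ± 0.36 for PHO84 (limma adjusted p of 0.0003 and 0.0234). PHO5 stood at -1.11, -1.85 and -1.85 with ethanol in W303-1A, against 0.15, 0.40 and -0.20 without. In CM1 PHO5 rose by 1.07 ± 0.26 with ethanol (limma adjusted p = 0.0247), where PHO3 had a difference of 0.06 ± 0.56. The PHO5 call in CM1 was lost without any 1 of the CM1 arrays other than replicate 2 with ethanol, and that of PHO84 without any 1 of the 4 normal arrays of the parent.

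Without ethanol, PHO5, PHO11 and PHO12 were lower in CM1 than in W303-1A, by -2.14 ± 0.26, -2.22 ± 0.29 and -2.18 ± 0.31 (limma adjusted p of 0.000271, 0.000435 and 0.000858). These were 3 of 5, beside 1.12% of all genes that passed as lower. In SM1 4 of 5 passed as lower than in W303-1A, beside 1.56% of all genes. PHO5 was lower by 2.43 log2 units (-2.43 ± 0.26, limma adjusted p = 0.000209). The group means in SM1 and W303-1A were -2.30 and 0.21 for PHO11, -2.14 and 0.36 for PHO12, and -1.33 and 0.96 for PHO84. Without ethanol, the PHO5 difference of CM1 from W303-1A was similar within the swapped arrays (-2.04) and the normal arrays (-2.19). With ethanol these 4 genes again passed as lower in SM1, beside 7.19% of all genes, and 0 of 5 passed in CM1 against W303-1A. The calls of PHO11, PHO12 and PHO84 with ethanol were each lost without some single arrays. How far the PHO3 probe reads PHO5, PHO11 or PHO12 was not tested.

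Of all named genes, those whose levels followed THI6 most closely over the 18 arrays were ZRT1, a zinc transporter (Pearson's r = 0.80), PMT7, a putative mannosyltransferase (0.76), VHT1, the biotin transporter (0.75), HXK1, a hexokinase (0.74), and MET18, of cytosolic iron-sulfur assembly (0.70). The arrays share the pool and the dye orientation, and the correlation rests largely on the CM1 arrays with ethanol. Over the other 15 arrays r was 0.35 for ZRT1, 0.33 for PMT7, 0.03 for VHT1, -0.02 for HXK1 and -0.04 for MET18. ZRT1 stood at 1.07, 1.42 and 0.94 in CM1 with ethanol, against -0.95, -1.25 and -0.90 without, and no array of the other 5 groups stood above 0.23. Over the 6 group means the order changed, with VID30 first (r = 0.99) and KGD1 among the 5 highest (0.97).

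Of the other 9 thiamine genes, those nearest to THI6 over the 18 arrays were THI21 (r = 0.27) and THI22 (0.26), and THI4 stood at -0.30. Over the 6 group means THI80 was nearest (r = 0.78, but 0.09 over the 18 arrays), at about the value of HXK1 (0.78). KGD1, a thiamine-linked gene outside the 10, stood at 0.47 over the 18 arrays. The genes beside THI6 in the R64 order, CBP3 and LEA1, had ethanol differences in CM1 of 0.32 and -0.53.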

How the data were processed

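The values used are normalized log ratios of 18 arrays, as deposited by the authors and read here as log2. Their log base, centring, background correction and software are not given in the sources used here, and another base would rescale every value. Column medians lay between -0.0041 and 0.0305. Of 6368 probes without missing values, 5673 had 1 gene symbol, 0 several and 695 none (left out), and the 23 genes with 2 probes were averaged. Swapped arrays were multiplied by -1. In R 4.3.3 with limma 3.58.1, group means and a dye term were fitted to all 18 arrays, with empirical Bayes moderation and Benjamini-Hochberg adjustment over 5650 genes. The script was tested on simulated data. All 10 genes matched the R64 gene table, which was used for names and neighbours only. The number of arrays limits precision. The 10 genes and the lists were chosen with earlier results of these data known, and listed genes are named where they passed. Also named are the 5 genes with the highest correlation with THI6. Alternatives changed the centring, normalization, dye term, arrays in the fit, sign, weights, probe-number trend and replicates. Setting values next to 0 to missing was added after seeing the data.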

Additional observations from a re-analysis of the deposited data

Results flagged for a closer look

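The ethanol response differed between strains by the interaction term of the fit for ARO10, PHO5, PHO11 and PHO12. Values for THI6 and THI4 are given as a description with no test, because these genes were chosen on the same values. For THI6 the response of CM1 exceeded that of W303-1A by 4.45 ± 0.81 and that of SM1 by 4.79 ± 0.81. For THI4 the response of CM1 minus that of W303-1A was -2.22 ± 0.52. For ARO10 the response of CM1 minus that of W303-1A was -2.07 ± 0.49 (limma adjusted p = 0.0246), and that of SM1 minus that of W303-1A was -3.83 ± 0.49 (limma adjusted p = 0.000542). For the acid phosphatase genes the response of CM1 minus that of W303-1A was 2.79 ± 0.37 for PHO5 (limma adjusted p = 0.000775), 2.53 ± 0.41 for PHO11 (limma adjusted p = 0.00398) and 3.03 ± 0.44 for PHO12 (limma adjusted p = 0.00177). Each of these 3 calls was kept under 21 of 24 alternatives and was lost without replicate 2 or replicate 3 of all groups and with the sign of the swapped arrays not turned. For PHO11 the response of SM1 minus that of W303-1A was 1.56 ± 0.41 (limma adjusted p = 0.0363), kept under 10 of 24 alternatives and lost without any 1 of 9 single arrays. PHO3, related to these genes, had a fitted value of 2.53 ± 0.79 for CM1 minus W303-1A. Groups of 3 arrays were too small to look for single arrays far from the others.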

How the results depend on the processing

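The differences of THI6 were recomputed under 9 alternatives besides leaving out arrays, and no fitted value of the 10 genes that had passed changed sign. With the sign of the swapped arrays not turned, THI6 gave 0.17 for ethanol in CM1, 0.35 for CM1 against W303-1A with ethanol, 0.82 for the response of CM1 minus W303-1A and 0.65 for CM1 minus SM1. Swapped and normal THI6 values of CM1 with ethanol opposed each other in that setting. Leaving out arrays gave THI6 3.23 to 4.62 for ethanol in CM1, -0.85 to -0.37 in SM1 and -0.85 to 0.43 in W303-1A. It gave 3.03 to 4.36 for CM1 against W303-1A with ethanol and -1.18 to 0.10 without, and -1.34 to -0.67 for SM1 against W303-1A with ethanol and -1.30 to -0.0023 without. For the responses it gave THI6 3.67 to 5.08 for CM1 minus W303-1A, 4.01 to 5.30 for CM1 minus SM1 and -1.08 to 0.20 for SM1 minus W303-1A.

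Of the 28 thiamine-linked genes, those that passed changed in number as follows. For ethanol in CM1 they numbered 2, against 0 with no dye term, with only the groups compared, under quantile normalization or with the sign not turned, and 1 with a replicate block. For ethanol in SM1 they numbered 3, against 11 with array weights, 5 with values next to 0 missing, and 0 with no dye term or the sign not turned. For ethanol in W303-1A they numbered 10, against 6 with no dye term, 3 under quantile normalization and 0 with the sign not turned. For CM1 against W303-1A they numbered 4 with ethanol, against 0 with only the groups compared or the sign not turned and 1 under quantile normalization, and 1 without ethanol, against 0 with the sign not turned. For SM1 against W303-1A they numbered 3 with ethanol, against 5 with array weights and 1 under quantile normalization or with the sign not turned, and 0 without ethanol (3 at an unadjusted p under 0.05), against 3 with array weights and 2 under quantile normalization. For the responses, CM1 minus W303-1A gave 1, against 2 with array weights, 3 with values next to 0 missing, and 0 with no dye term, under quantile normalization, with the sign not turned or with the probe-number trend removed. SM1 minus W303-1A gave 1, against 3 with array weights and 0 with the sign not turned, and CM1 minus SM1 gave 0 in limma (4 at an unadjusted p under 0.05), against 2 with array weights and 1 under quantile normalization. The share of all genes that passed is given for the main fit only. For these alternatives, and with arrays left out, a change over the whole array cannot be told apart from one in these genes. The causes were not tested.

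Leaving out arrays, the thiamine-linked genes that passed numbered 0 to 2 for ethanol in CM1, 0 to 5 in SM1 and 1 to 14 in W303-1A, 1 to 6 for CM1 and 1 to 4 for SM1 against W303-1A with ethanol, 0 to 1 for CM1 and 0 for SM1 without, 0 to 4 for the response of CM1 minus W303-1A, 0 to 2 for SM1 minus W303-1A and 0 to 1 for CM1 minus SM1.

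With a replicate block in the fit the THI6 difference for ethanol in CM1 was 4.14, which the balanced design fixes, since every group holds each replicate number once. The block can therefore change only errors and calls. Among the normal arrays the replicate numbers showed no pairing of the samples. The differences of replicates 2 and 3 correlated between groups at -0.17 to 0.0926, with 0 of 15 pairs above 0.1. Replicate 1 was dye-swapped in every group, so a pairing of its samples cannot be told apart from the dye.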

Other observations

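TKL2, a second transketolase, was below 0 on 18 of 18 arrays as deposited, like TPC1, and its swapped arrays differed from the normal ones by 1.99 after the sign was turned. SNZ1, which passed as higher with ethanol in W303-1A and CM1, was exactly at 0 on replicate 2 of SM1 with ethanol, an array with 167 such probes. In SM1 it did not pass, at group means of 1.97 with ethanol and -0.33 without, with overlapping ranges. On replicate 1 of SM1 with ethanol, THI6, THI22, THI2 and THI3 were among the 726 probes within 0.005 of 0. With the sign of the swapped arrays not turned, the correlation of ZRT1 with THI6 over the 18 arrays was 0.43, and those of PMT7, VHT1, HXK1 and MET18 were 0.78, 0.76, 0.77 and 0.75.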
